A study of Homo sapiens with 5 samples.

Results

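The miR-15/16 seed family was described in 5 human hematopoietic cell lines profiled on the nCounter system, which counts colour-coded reporters bound to each tagged miRNA. The members were chosen by name among the probes of the human miRNA class, without star forms: hsa-miR-15a, hsa-miR-15b, hsa-miR-16, hsa-miR-195, hsa-miR-497, hsa-miR-424 and hsa-miR-503. They are 7 of the 654 human miRNA probes, and 753 probes were counted in all. Meg-01 is a megakaryoblastic line, Jurkat a T-lymphoblastic line, Raji a B-lymphoblastic line, U937 a monocytic line and K562 an erythroleukemic line, and no treatment is named for any of them. All are long-cultured lines that derive from leukemias or lymphomas. Each line was measured in 1 sample, from 100 ng of total RNA extracted with Trizol, so a lineage and the line that stands for it cannot be told apart. Kit versions v1 and v2 are named for the study, and which one each line was run on is not given in the sources used here. There were no replicates, no difference between lines was tested, and every interval given is a 95% interval that covers counting error only. The total count of the human probes was 109731 in Meg-01, 105224 in K562, 130048 in Jurkat, 66892 in Raji and 94027 in U937.

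A miRNA recognises its target mRNAs mainly through its seed, the bases near its 5′ end, so miRNAs with the same seed share most of their predicted targets. The miR-15/16 family restrains entry into the cell cycle by repressing cyclins and their kinases, and the apoptosis inhibitor BCL2 is among its known targets. In blood cells the family is best known for the cluster of miR-15a and miR-16 inside the noncoding RNA gene DLEU2, which is often lost in chronic lymphocytic leukemia.

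The mature sequences of the members are shown because the seed is what defines the family. They were taken from RefSeq (GRCh38.p14), are written 5′ to 3′, and have bases 2 to 8, the seed, in capitals.
hsa-miR-15a: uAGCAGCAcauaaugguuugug
hsa-miR-15b: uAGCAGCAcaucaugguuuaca
hsa-miR-16: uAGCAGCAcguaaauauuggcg
hsa-miR-195: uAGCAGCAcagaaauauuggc
hsa-miR-497: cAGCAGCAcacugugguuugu
hsa-miR-424: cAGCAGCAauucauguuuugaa
hsa-miR-503: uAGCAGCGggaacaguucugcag
6 of the 7 members had AGCAGCA at bases 2 to 8. hsa-miR-503 had AGCAGCG there and shared only bases 2 to 7, AGCAGC, with the others. Of 2370 mature names in the RefSeq table, 7 (0.295%) had AGCAGCA at bases 2 to 8, which were these 6 and hsa-miR-6838-5p, not analysed here. At bases 2 to 7, 9 names (0.380%) had AGCAGC, with hsa-miR-503-5p and hsa-miR-646 added to the list. The miR-103a and miR-107 sequences held AGCAGCA at bases 1 to 7, shifted by 1 base. Outside the seed the members differed: hsa-miR-15a and hsa-miR-15b were 4 single-base edits apart with their first 11 bases identical, hsa-miR-16 and hsa-miR-195 were 3 edits apart, and hsa-miR-497 and hsa-miR-503 were 12 edits apart. Whether a probe also bound a close relative was not tested.

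The members lie in 4 pairs of hairpins. MIR15A and MIR16-1 lie on the minus strand of chromosome 13 within DLEU2 and span 229 bases, with mature miR-15a at chr13:50049167-50049188 and mature miR-16 at chr13:50049027-50049048. MIR15B and MIR16-2 lie on the plus strand of chromosome 3 within SMC4 and span 238 bases, with mature miR-15b at chr3:160404607-160404628 and the same mature miR-16 at chr3:160404754-160404775. The miR-16 probe therefore counts the product of both loci. MIR195 and MIR497 span 408 bases on chromosome 17 within MIR497HG, and MIR424 and MIR503 span 384 bases on chromosome X.

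The lines were set against 7 miRNAs known as markers of blood lineages. miR-142-3p, a general hematopoietic miRNA, had 18315 raw counts in Meg-01, 7436 in K562, 32907 in Jurkat, 8151 in Raji and 11271 in U937. miR-126, of megakaryocytes and progenitors, had 1954 in Meg-01 and 1482 in K562 and at most 99 elsewhere, and the erythroid miR-144 had 981 in Meg-01 and 216 in K562 and no count above background elsewhere. The erythroid miR-451 was likewise above background only in Meg-01 (129) and K562 (59). The myeloid miR-223 had 2682 counts in U937, but 3269 in Meg-01, 1684 in K562, 732 in Jurkat and 62 in Raji. miR-150, of mature lymphocytes, had 1030 in Jurkat and was below background in Raji at 21, and miR-155, of activated lymphocytes, had 254 in Raji, 253 in U937, 121 in Meg-01, 36 in Jurkat and 32 in K562.

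hsa-miR-15a, encoded at the DLEU2 locus, separated Meg-01 from every other line. It gave 30 raw counts in Meg-01 (20.2 to 42.8), 860 in K562 (803 to 919), 3746 in Jurkat (3627 to 3868), 1599 in Raji (1522 to 1679) and 2902 in U937 (2797 to 3009.6). Meg-01 was low, K562 intermediate and the other lines high. A probe was called detected in a line when its count lay above a threshold set from that line's 8 negative control probes, their mean plus 2 SD, which was 42.1 counts in Meg-01, 34.6 in K562, 35.02 in Jurkat, 45.9 in Raji and 34.9 in U937. By this threshold miR-15a was not detected in Meg-01, where the negative controls ranged from 8 to 44 counts, and was detected in the other 4 lines. It counts as detected in Meg-01 too if the threshold is the mean of the negative controls or 20 counts. In rank among all human probes it was 16 in K562, 7 in Jurkat, 10 in Raji and 8 in U937. Its rank of 295 in Meg-01 lies among background counts, since 178 human probes were detected there.

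To compare lines, each count was multiplied by a factor that gives the 100 most abundant miRNAs the same geometric mean in every line. The scaled values of hsa-miR-15a were 22.2 in Meg-01, 1052 in K562, 3017 in Jurkat, 2524 in Raji and 3028 in U937. U937 and Jurkat did not differ beyond counting error (ratio 1.004, 0.956 to 1.05), Raji was at 0.837 of Jurkat (0.789 to 0.887), and K562 was at 0.417 of Raji (0.383 to 0.453). These steps among the 4 lines changed with the scaling. U937 was at 0.775 of Jurkat with no normalization and at 1.07 of it with the positive controls or the total human counts. Raji was at 0.427 of Jurkat with no normalization, 0.457 with the positive controls and 0.426 with the housekeeping probes, and K562 was at 0.891 of Raji with the housekeeping probes. K562, the lowest of the other 4 lines, exceeded Meg-01 47.3-fold before subtraction (32.9 to 70.5). After subtraction of the threshold, with Meg-01 entered at its threshold, the fold was 32.3. With no normalization these folds were 28.7 before subtraction and 19.6 after it, but Meg-01 was the lowest line and K562 the next under that and the other 5 scalings tried. In bulk RNA, fewer cells with a miRNA and less of it per cell cannot be told apart.

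**Figure D1:**
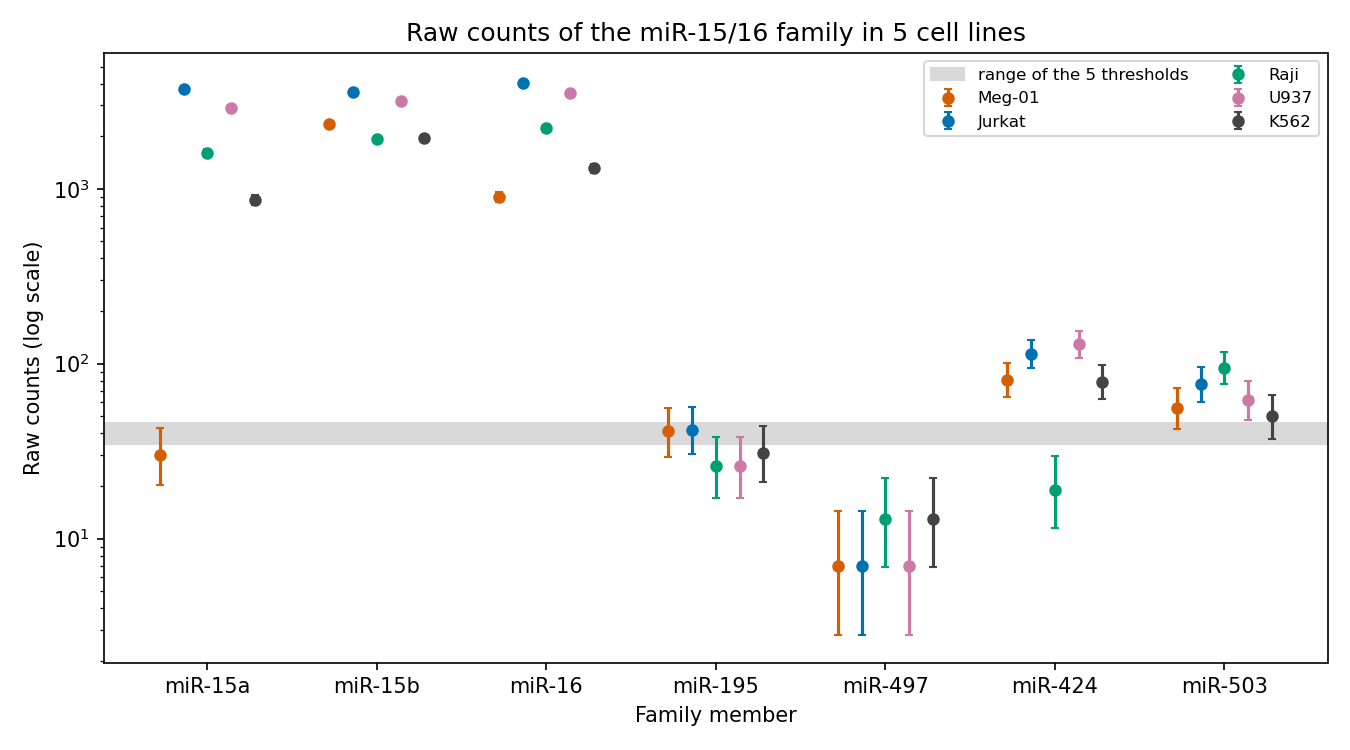
Raw counts (log scale) of the 7 members in the 5 lines, 1 sample each, with exact Poisson 95% intervals as bars and the range of the detection thresholds of the 5 lines as a grey band. miR-15a lies at 30 counts in Meg-01 and between 860 and 3746 elsewhere, while miR-15b lies between 1927 and 3560 in all 5 lines.

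hsa-miR-15b, the close relative encoded on chromosome 3, showed no such gap. It gave 2357 raw counts in Meg-01 (2263 to 2454), 1951 in K562 (1865 to 2039.5), 3560 in Jurkat (3444 to 3679), 1927 in Raji (1842 to 2015) and 3189 in U937 (3079 to 3302). Its rank among the human probes stayed between 7 and 9 in all 5 lines. Scaled, it was 1747.5 in Meg-01, 2386 in K562, 2867 in Jurkat, 3042 in Raji and 3327 in U937, a spread of 1.90-fold between the highest and the lowest line. Among the 88 human miRNAs detected in all 5 lines this was the 11th smallest spread, with a median of 2.53-fold. Which line was lowest depended on the scaling: Meg-01 in the main setting, Raji with no normalization, and K562 when counts were scaled to the positive controls or to the total human counts.

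hsa-miR-16, the product of both loci, lay between these patterns. It gave 895 raw counts in Meg-01 (837 to 956), 1308 in K562 (1238 to 1381), 4025 in Jurkat (3902 to 4151), 2234 in Raji (2142 to 2329) and 3512 in U937 (3397 to 3630.1). Meg-01 was the lowest line in these counts and under every scaling tried. Scaled, it was 664 in Meg-01, 1599.6 in K562, 3242 in Jurkat, 3527 in Raji and 3664 in U937, so that U937 exceeded Meg-01 5.52-fold (5.13 to 5.95) and K562 exceeded it 2.41-fold (2.21 to 2.63). With no normalization the K562 fold was 1.46. U937 and Raji did not differ beyond counting error in the main scaling (ratio 1.04, 0.985 to 1.096), but U937 was higher under every other scaling tried, at 1.57-fold with no normalization, 2.02-fold with the positive controls and 2.13-fold with the housekeeping probes. The spread of miR-16 ranked 73rd from the smallest among the same 88 miRNAs.

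Because probes differ in efficiency, the counts of members within a line are not relative amounts, but the way a ratio of members changes between lines is free of scaling. It is also free of probe efficiency if each probe is equally efficient in every line. With the kit of each line not given, that was not tested. The ratio of miR-15a to miR-15b counts was 0.0127 in Meg-01 (0.00857 to 0.0182), 0.441 in K562 (0.406 to 0.478), 1.05 in Jurkat (1.005 to 1.102), 0.830 in Raji (0.776 to 0.887) and 0.910 in U937 (0.865 to 0.957). Relative to Meg-01 this ratio was 34.6-fold higher in K562 (23.9 to 51.9), 65.2-fold in Raji (45.2 to 97.4), 71.5-fold in U937 (49.7 to 107) and 82.7-fold in Jurkat (57.5 to 123). The intervals of the 4 comparisons with Meg-01 do not reach 1, and K562 was in turn lower than Raji, U937 and Jurkat. Since the miR-15a count of Meg-01 was at background level, the K562 fold rose from 34.6 to 106 when the mean of the negative controls was subtracted first. With Meg-01 entered at its threshold, the folds were 24.7 in K562, 46.5 in Raji, 50.9 in U937 and 58.9 in Jurkat.

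The ratio of miR-16 to miR-15b counts was also lowest in Meg-01 and next lowest in K562, with smaller differences. It was 0.380 in Meg-01 (0.351 to 0.410), 0.670 in K562 (0.625 to 0.719), 1.13 in Jurkat (1.08 to 1.18), 1.16 in Raji (1.09 to 1.23) and 1.101 in U937 (1.05 to 1.16). Jurkat, Raji and U937 did not differ beyond counting error (Jurkat over Raji 0.975, 0.903 to 1.05; Jurkat over U937 1.03, 0.961 to 1.097; Raji over U937 1.05, 0.973 to 1.14). K562 was 1.77-fold above Meg-01 (1.59 to 1.96), Jurkat 2.98-fold (2.72 to 3.26), Raji 3.05-fold (2.76 to 3.37) and U937 2.90-fold (2.65 to 3.18). Between miR-15a and miR-16, which share the DLEU2 locus, the ratio was 0.0335 in Meg-01 (0.0225 to 0.0482), 0.657 in K562, 0.931 in Jurkat, 0.716 in Raji and 0.826 in U937. The Meg-01 ratio carries background, because its miR-15a count lay below the threshold. Raji and K562 did not differ beyond counting error (ratio of ratios 1.09, 0.976 to 1.21). Whether the share of miR-16 that comes from each locus differed between the lines was not tested.

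**Figure D2:**
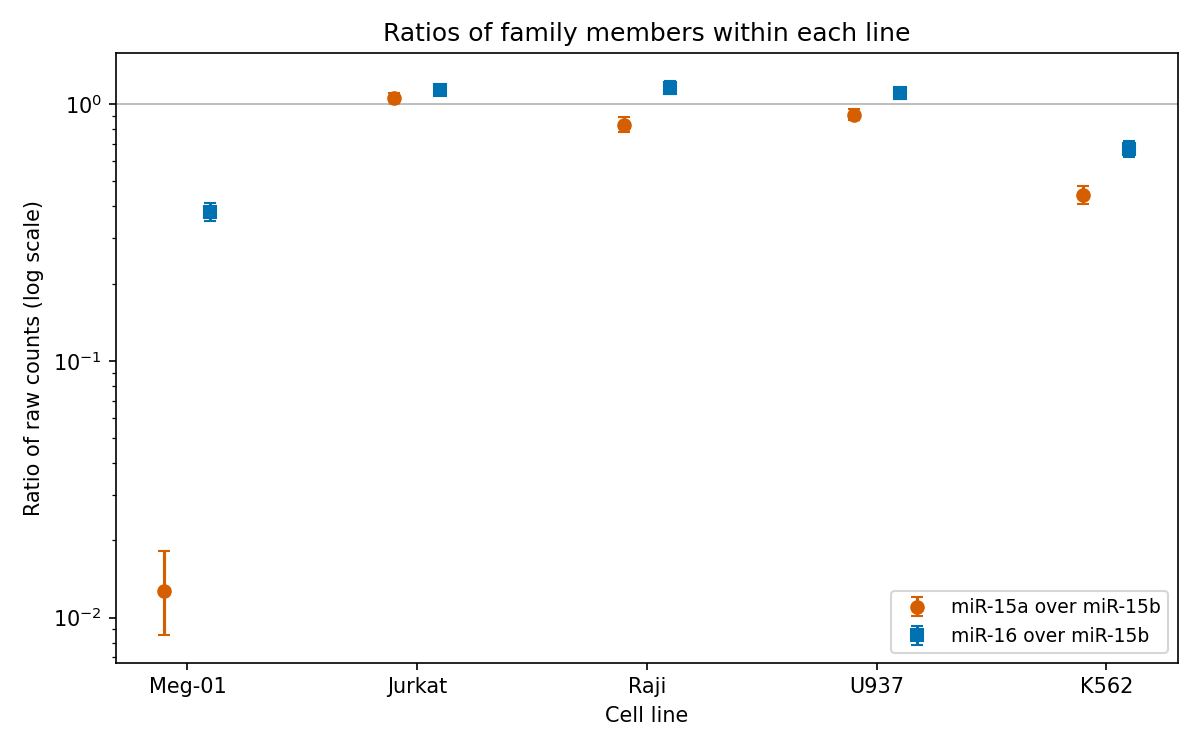
Ratio of the raw counts of miR-15a (circles) and of miR-16 (squares) to those of miR-15b within each line, on a log scale with exact 95% intervals and a grey line at equality. Both ratios are lowest in Meg-01 (0.0127 and 0.380), next lowest in K562 (0.441 and 0.670) and near 1 in Jurkat, Raji and U937.

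The low values in Meg-01 were set against those human miRNAs that were detected in the other 4 lines. Of 93 probes detected in the other 4 lines, 2 (2.15%) had a scaled value over 2-fold lower in Meg-01 than in each of those lines, and both were family members, hsa-miR-15a at 47.3-fold and hsa-miR-16 at 2.41-fold. The 93 were chosen by detection in the other 4 lines alone, so miR-15a, not detected in Meg-01, entered through the lines where it is high, and its fold was 32.3 after subtraction with Meg-01 entered at its threshold. The same count was 5 of 116 probes in Raji (4.31%), with miR-424 at a background count among them, 4 of 94 in K562 (4.26%), 1 of 88 in Jurkat (1.14%) and 0 of 90 in U937. In the opposite direction, 16 of the 178 probes detected in Meg-01 (8.99%) were over 2-fold higher there than in each other line, none of them a member. After miR-15a and miR-16, the next probes by fold lower in Meg-01 were miR-25 at 1.95-fold, miR-492 at 1.85-fold and miR-130b at 1.76-fold. The other members among the 93 were miR-15b at 1.37-fold and miR-503 at 1.47-fold (0.985 to 2.196). Meg-01 was not the lowest line for either with no normalization, the positive controls or the total human counts, and the miR-503 ratio of K562 to Meg-01 was 0.893 with no normalization. The place of miR-16 past 2-fold held in the main setting and in 3 other scalings, while with no normalization it was at 1.46-fold, with the positive controls at 1.59-fold and with the total human counts at 1.52-fold, where miR-15a alone was past 2-fold. Of the 93 probes above the threshold in the other 4 lines, 5 were below it in Meg-01 (0.765% of all 654 human probes). Besides miR-15a these were miR-492, miR-708, miR-1289 and miR-513a-3p, named after their values were seen, and their lowest counts in the other lines were 38 to 47, against 860 for miR-15a.

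**Figure D3:**
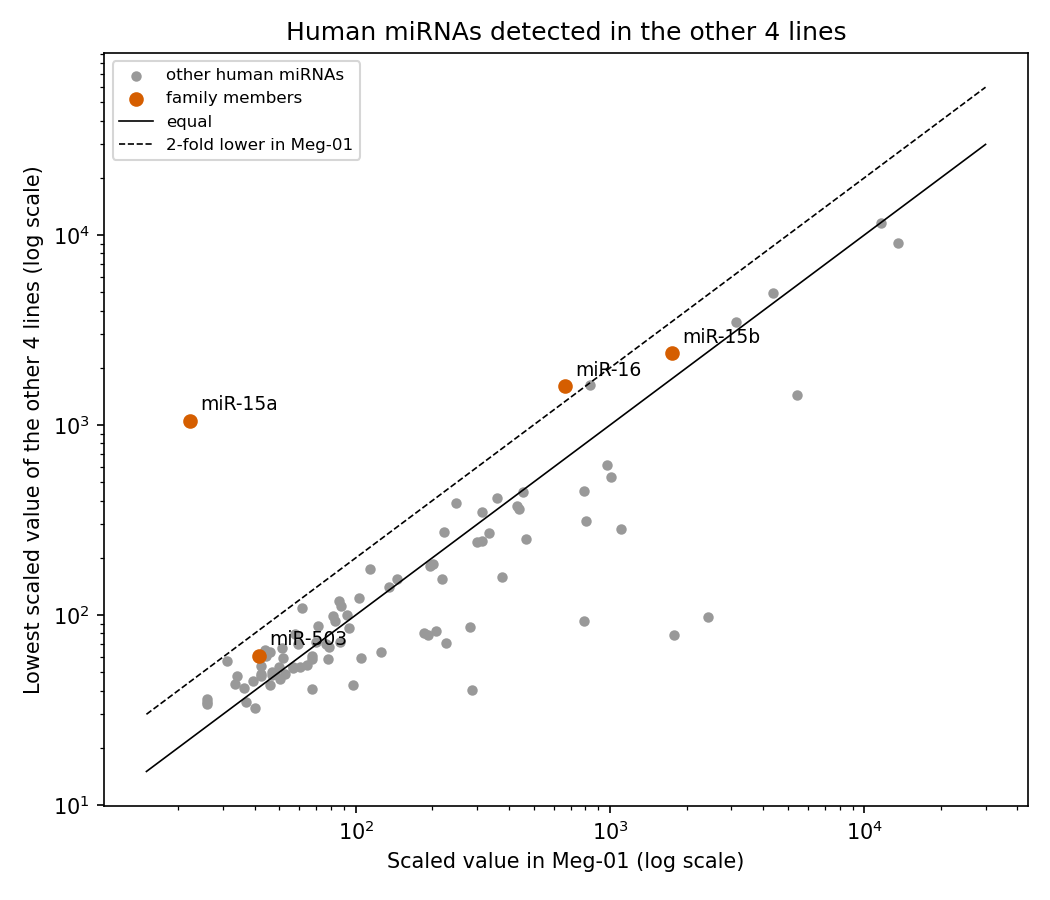
Scaled value in Meg-01 (x, log scale) against the lowest scaled value of the other 4 lines (y, log scale) for the 93 human miRNAs detected in those 4 lines, with family members in orange, a solid line at equality and a dashed line at 2-fold lower in Meg-01. miR-15a (22.2 against 1052) and miR-16 (664 against 1599.6) are the points above the dashed line.

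The summed family took its smallest share of the miRNA counts in Meg-01 and its largest in U937. The 7 members made up 3.16% of the human miRNA counts in Meg-01 (3.06 to 3.26), 4.08% in K562 (3.96 to 4.20), 8.90% in Jurkat (8.74 to 9.05), 8.84% in Raji (8.63 to 9.06) and 10.5% in U937 (10.3 to 10.6). In these unsubtracted counts Jurkat and Raji did not differ beyond counting error (ratio 1.01, 0.977 to 1.04), and U937 exceeded Raji 1.18-fold (1.15 to 1.22). As relative abundance after scaling and subtraction of the threshold, the family made up 3.54% in Meg-01, 4.57% in K562, 10.1% in Jurkat, 11.8% in Raji and 12.4% in U937, so that the highest line exceeded the lowest 3.51-fold. These shares were lower in Meg-01 and K562 than in the lymphoid and monocytic lines. Raji lay above Jurkat after subtraction and nearer to U937. With the mean of the negative controls subtracted instead, the shares were 9.83% in Jurkat, 10.8% in Raji and 11.9% in U937. The equality of Jurkat and Raji therefore held only without subtraction. As a sum of scaled values after subtraction the family reached 2388 in Meg-01, 4983 in K562, 9144 in Jurkat, 8954 in Raji and 10037 in U937. Meg-01 had the lowest sum under every scaling tried, while K562 (6382) was above Raji (5360) when scaled to the housekeeping probes.

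Leaving hsa-miR-15a out of the sum narrowed the gap between the lowest lines. The other 6 members made up 3.13% of the counts in Meg-01 (3.03 to 3.24), 3.26% in K562 (3.16 to 3.37), 6.02% in Jurkat (5.89 to 6.15), 6.45% in Raji (6.26 to 6.64) and 7.36% in U937 (7.20 to 7.53). With miR-15a, the share in K562 was 1.29-fold that of Meg-01 (1.24 to 1.35). Without it the ratio was 1.04 (0.994 to 1.09), so that the 2 lines no longer differed beyond counting error, while U937 remained 2.35-fold above Meg-01 (2.26 to 2.45).

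The composition of the family counts followed. In Meg-01, miR-15b made up 68.0% of the family counts (66.4 to 69.5), miR-16 25.8% (24.4 to 27.3) and miR-15a 0.865% (0.585 to 1.23). That miR-15a share is from a count at background and was 0% after subtraction of the threshold. In K562, miR-15b made up 45.5% (44.0 to 47.0), miR-16 30.5% (29.1 to 31.9) and miR-15a 20.04% (18.8 to 21.3). In Jurkat, Raji and U937 miR-16 was the largest component, at 34.8%, 37.8% and 35.7%. There miR-15b made up 30.8%, 32.6% and 32.5% and miR-15a 32.4%, 27.0% and 29.5%. The 3 members together held between 94.7% (Meg-01) and 97.9% (Jurkat) of the family counts. These percentages are of counts and carry the unequal efficiency of the probes.

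**Figure D4:**
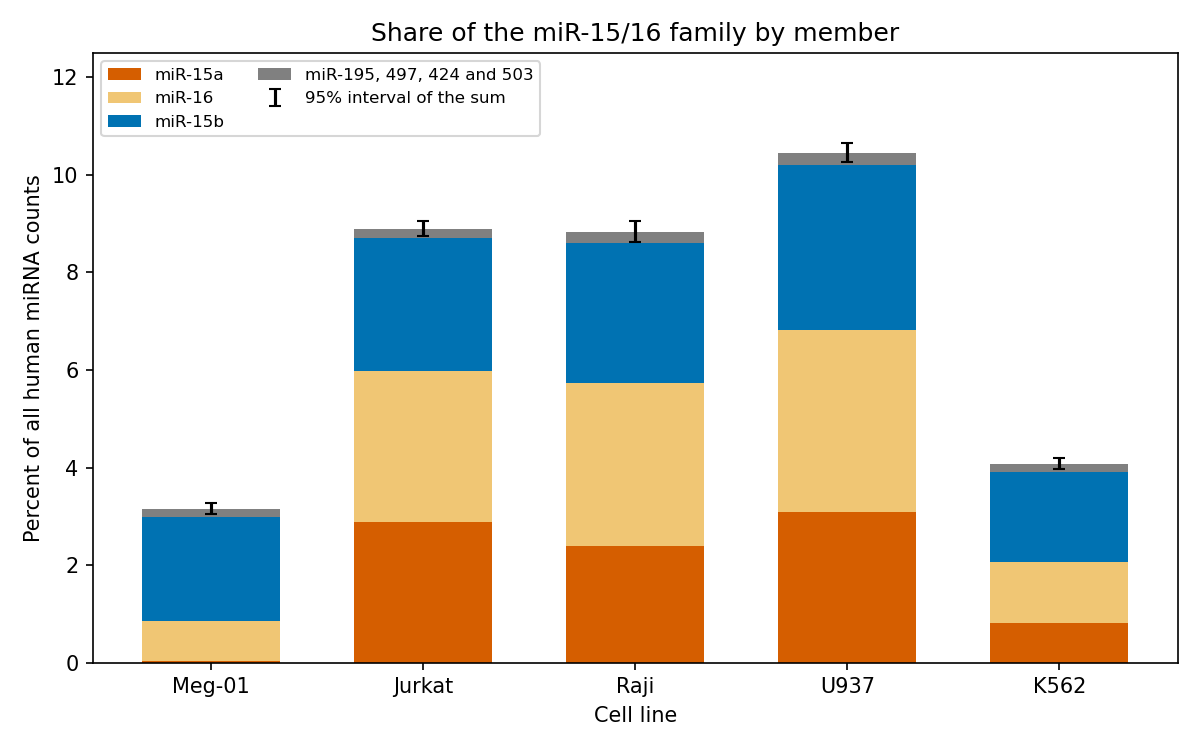
Percent of all human miRNA counts taken by the family in each line (bars from 0), split into miR-15a, miR-16, miR-15b and the sum of miR-195, miR-497, miR-424 and miR-503, with the 95% Clopper-Pearson interval of the whole family. The family reaches 3.16% in Meg-01 and 10.5% in U937, and the miR-15a segment is near 0 in Meg-01.

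By the threshold, 4 of the 7 members were detected in Meg-01, where 27.2% of all human probes were detected. In Jurkat 6 members were detected (35% of human probes), in Raji 4 (17%), in U937 5 (28.3%) and in K562 5 (27.5%). 3 members, miR-15b, miR-16 and miR-503, were detected in all 5 lines, as were 13.5% of the human probes.

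The chromosome 17 pair was at or near background. hsa-miR-195 gave 41 raw counts in Meg-01, 31 in K562, 42 in Jurkat, 26 in Raji and 26 in U937. It passed the threshold in Jurkat alone, with an interval (30.3 to 56.8) that reaches below the threshold of 35.02. hsa-miR-497 gave 7 counts in Meg-01, 13 in K562, 7 in Jurkat, 13 in Raji and 7 in U937, below the threshold in every line, with upper limits between 14.4 and 22.2 counts. For miR-195 the interval of the ratio reached 1 in each of the 10 pairs of lines, in raw counts and scaled. For miR-497 it reached 1 in all 10 pairs in raw counts but left it out in 5 pairs once scaled, and no fold is given because both counts of every pair lay below the threshold. hsa-miR-195 is 3 single-base edits from hsa-miR-16, and its count was between 0.740% and 4.58% of the miR-16 count in the 5 lines.

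The chromosome X pair, known for its part in myeloid differentiation and cell cycle arrest, was low and parted in Raji. hsa-miR-424 gave 81 raw counts in Meg-01 (64.3 to 101), 79 in K562 (62.5 to 98.5), 114 in Jurkat (94.0 to 137), 19 in Raji (11.4 to 29.7) and 129 in U937 (108 to 153). It was detected in 4 lines and lay below the threshold of 45.9 in Raji with its whole interval. Entered at its threshold (72.4 scaled), Raji was below Jurkat (91.8), K562 (96.6) and U937 (135) but above Meg-01 (60.1). With the threshold subtracted from the other lines, Raji was at 1.14 of Jurkat, 1.33 of K562, 2.51 of Meg-01 and 0.737 of U937. The place of Raji as the lowest line for miR-424 therefore rests on a count at background. hsa-miR-503 gave 56 raw counts in Meg-01 (42.3 to 72.7), 50 in K562 (37.1 to 65.9), 77 in Jurkat (60.8 to 96.2), 95 in Raji (76.9 to 116) and 62 in U937 (47.5 to 79.5). Raji was the highest line for miR-503 in raw counts and under every scaling tried, though its raw interval overlaps those of Jurkat and U937. In the main scaling it was 2.32-fold above U937 (1.67 to 3.25) and 2.42-fold above Jurkat (1.77 to 3.31), one of 8 of the 111 probes detected in Raji (7.21%) over 2-fold higher there than in each other line. With the positive controls Raji was at 95.8 and U937 at 80.5, and with the housekeeping probes at 89.8 and 79.2. The ratio of miR-424 to miR-503 counts was 1.45 in Meg-01 (1.02 to 2.07), 1.58 in K562 (1.09 to 2.30), 1.48 in Jurkat (1.099 to 2.003), 0.20 in Raji (0.115 to 0.330) and 2.08 in U937 (1.53 to 2.86). The miR-424 count of Raji was at background level, below the mean of its negative controls (23.1), so its ratio carries background. With miR-424 of Raji entered at the threshold, the ratio in Raji was 0.483, and Meg-01 was 2.996-fold above it, Jurkat 3.07-fold, K562 3.27-fold and U937 4.31-fold. With the threshold also subtracted from the other counts, the folds lay between 2.02 (Jurkat) and 3.72 (U937). The count ratios of the other 4 lines did not differ from one another beyond counting error.

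Raji had the smallest total count and the highest threshold. Of the 116 human probes above the threshold in the other 4 lines, 28 were below it in Raji, miR-424 among them (4.28% of all 654 human probes). The part of depth in that count was not tested.

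The list of neighbours of miR-424 and miR-503 on chromosome X held 5 further probes. hsa-miR-450a gave 52 raw counts in Meg-01, 29 in K562, 135 in Jurkat, 16 in Raji and 62 in U937, with the highest count in Jurkat and the lowest in Raji. It was below the threshold in Raji and K562, and scaled, Raji did not differ beyond counting error from K562 (ratio 0.712, 0.361 to 1.36) or Meg-01 (0.655, 0.349 to 1.17). The Raji and K562 counts in these ratios are at background, so the ratios do not rank the lines. In Meg-01 the interval of miR-450a (38.8 to 68.2) reaches below the threshold of 42.1. hsa-miR-542-3p gave 60 in Meg-01, 70 in K562, 79 in Jurkat, 68 in Raji and 58 in U937, above the threshold in all 5 lines as was miR-503. hsa-miR-450b-5p ranged from 43 to 56 counts and was above the threshold in every line but Raji. hsa-miR-450b-3p and hsa-miR-542-5p had at most 35 and 29 counts and were not detected in any line. Of the 7 miRNAs of this group, miR-424 and miR-450a were therefore the ones whose raw count was lowest in Raji with an interval that lies wholly below the Raji threshold while they were detected in other lines, 4 for miR-424 and 3 for miR-450a.

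**Figure D5:**
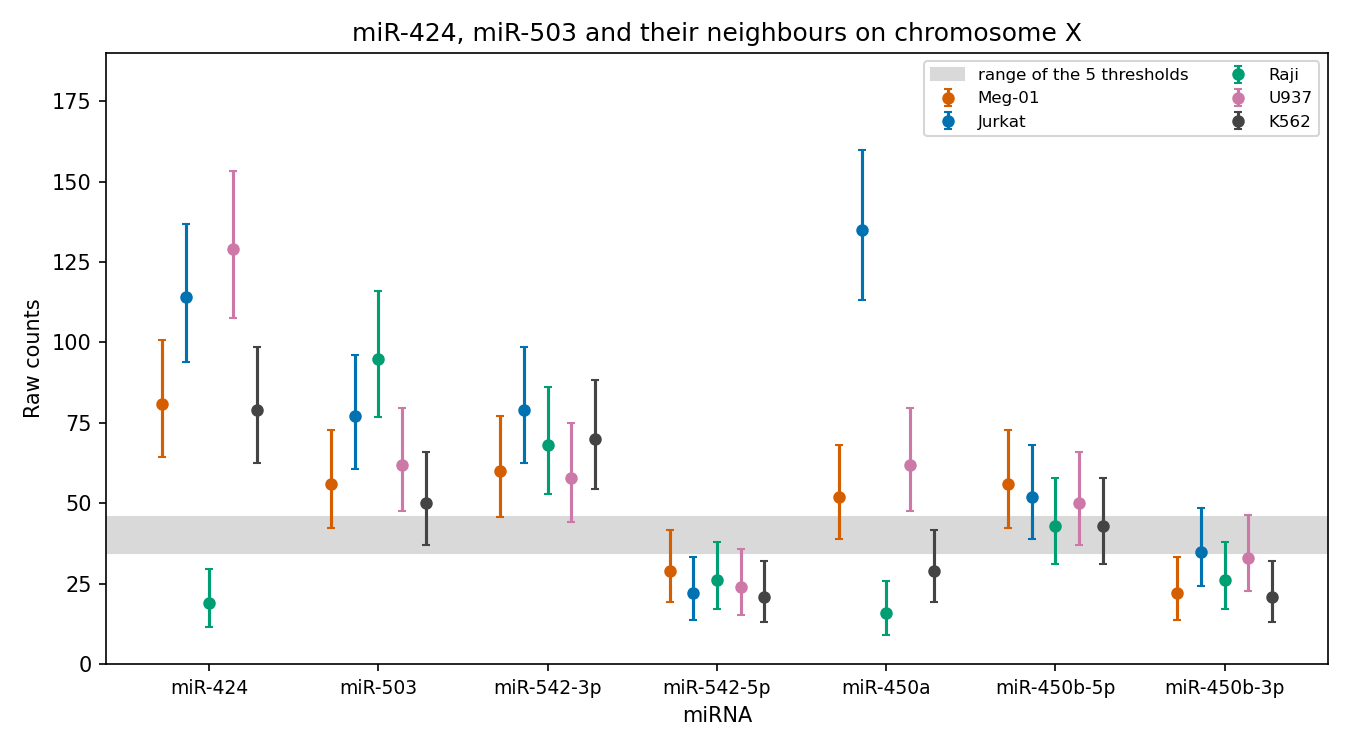
Raw counts of miR-424, miR-503 and 5 neighbouring miRNAs on chromosome X in the 5 lines, with exact Poisson 95% intervals as bars and the range of the detection thresholds as a grey band. Raji lies below the band for miR-424 (19) and miR-450a (16) and above it for miR-503 (95) and miR-542-3p (68). It also lies below the band for miR-450b-3p (26) and miR-542-5p (26), which were not detected in any line.

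Among the miRNAs with a related seed, the pattern of miR-15a did not recur. hsa-miR-103, whose sequence holds the family seed shifted by 1 base, gave 1355 raw counts in Meg-01, 472 in K562, 1534 in Jurkat, 336 in Raji and 911 in U937. hsa-miR-107 gave 159 in Meg-01, 52 in K562, 116 in Jurkat, 43 in Raji and 83 in U937. Both had their lowest raw count in Raji, where miR-107 was below the threshold, and miR-107 had its highest in Meg-01. Scaled, K562 and Raji were the lowest lines for both and did not differ beyond counting error (K562 over Raji 1.09, 0.944 to 1.26 for miR-103 and 0.937, 0.613 to 1.44 for miR-107). hsa-miR-646, which shares bases 2 to 7, had at most 24 counts and was not detected in any line.

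The human miRNAs with the profile most like hsa-miR-15a over the 5 lines were sought among 128 other probes detected in at least 4 lines, by the root mean square difference of centred log2 scaled values, with values below the threshold of a line set to it, as were miR-15a in Meg-01 and let-7i in K562. They were let-7i at 1.54, miR-16 at 1.63 and let-7f at 1.81, against a median of 2.39. None was close: let-7i gave 47 raw counts in Meg-01, 26 in K562, 1251 in Jurkat, 486 in Raji and 663 in U937, so it was low in K562 as well as in Meg-01. The profile of the family sum was nearer to others, with miR-148a at 0.14, miR-649 at 0.37 and miR-492 at 0.37 on the same scale, against a median of 0.80 over 124 probes outside the family. Here the Meg-01 value of miR-492 (42 raw counts) was also set to the threshold. Counts were low for miR-649 (52 to 107 raw counts) and miR-492 (42 to 78), against thresholds of 34.6 to 45.9. Background is therefore a large part of their profiles. hsa-miR-148a gave 333 raw counts in Meg-01, 317 in K562, 940 in Jurkat, 449 in Raji and 872 in U937. These differences rest on 5 lines with 1 sample each.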

How the data were processed

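Total RNA of 5 cell lines, 1 sample each, was hybridised to the nCounter human miRNA panel by the authors, who name kit versions v1 and v2 without the kit of each line. The tables of the 5 lines list the same 753 probes. The authors deposited raw counts per probe for each line, without normalization or background subtraction, and these counts were the values used here. The authors also deposited background-subtracted signal values, which equal the raw count less 1 constant per line (20.37 in Meg-01, 22.75 in K562, 16.25 in Jurkat, 23.12 in Raji and 20.87 in U937). The mean of the negative controls was 20.375, 20.25, 22.75, 23.125 and 20.875 counts in the same order, so the constants of Jurkat and K562 are not the means of their own controls, and this signal served only as an alternative. The names of 652 of the 654 human probes matched between the tables. No genome build enters the counts.

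Following the methods, counts were multiplied by a factor from the geometric mean of the 100 miRNAs highest by mean count: 0.741 in Meg-01, 1.22 in K562, 0.805 in Jurkat, 1.58 in Raji and 1.04 in U937. The threshold was the mean plus 2 sample SDs of 8 negative controls, values above it had it subtracted, and relative abundance was the share of the summed values. Intervals (95%) were exact Poisson for counts, conditional binomial for ratios of counts, conditional odds ratio for ratios of ratios, Clopper-Pearson for shares and log (Katz) for ratios of shares, and they were checked on simulated data. Alternatives were 6 other scalings, 4 other thresholds, no subtraction and the deposited signal.

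Named were the 7 members, 8 related or neighbouring miRNAs, the 3 probes most alike in profile to miR-15a and to the family sum, the 5 with the largest ratio of the lowest other line over Meg-01, and 7 lineage markers. The members, the lists and the contrast of miR-15a with Meg-01 were chosen with earlier results of these data known. RefSeq held the mature sequence of 7 of 7 members and 7 of the 8 other listed miRNAs, with probe names lacking an arm matched to the 5p entry and miR-103 to miR-103a-3p. Python 3.11.15, numpy 2.4.6, scipy 1.17.1, pandas 2.3.3 and matplotlib 3.10.9 were used.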

Additional observations from a re-analysis of the deposited data

How the results depend on the processing

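Meg-01 had the lowest family share and the lowest miR-15a value in every setting tried. The highest over the lowest family share, 3.51, was 3.31 with no subtraction and 2.46 without miR-15a. The miR-15a fold of K562 over Meg-01, 47.3, was 28.7 with no normalization, 31.2 scaled to the positive controls, 29.9 scaled to the total human counts, and between 43.2 and 65.8 in the other scalings. In subtracted values with Meg-01 at its threshold it was 32.3, and 19.6, 21.4 and 20.4 in the same 3 settings, 29.6 with the 100 highest chosen in each line, 33.5 without the family and 45.02 with the housekeeping probes. The fold for miR-15a to miR-15b, 34.6, was 106 with the mean of the negative controls subtracted and 105 in the deposited signal, which lower the Meg-01 value of miR-15a, and 24.7 with Meg-01 at its threshold or 23.7 with the threshold also subtracted, and for miR-16 to miR-15b it stayed at 1.78 against 1.77. The fold for miR-424 to miR-503 of the lowest other line over Raji was 7.23 in raw counts, 2.996 with Raji at its threshold and 2.02 with the threshold also subtracted. Members detected in all 5 lines numbered 3, but 5 with the mean of the negative controls or a minimum of 20 counts as the threshold, when miR-15a and miR-195 were added and the share of all human probes rose from 13.5% to 43.3% and 45.7%. Human miRNAs over 2-fold lower in Meg-01 numbered 2, but 1 with no normalization, the positive controls or the total counts and 3 with the family left out of the scaling or with the housekeeping probes. The lowest other line over Meg-01 for miR-19a, 1.53, fell below 1 with no normalization (0.719), the positive controls (0.822) and the housekeeping probes (0.996), and for miR-19b, 1.11, with these (0.702, 0.803 and 0.973) and the total counts (0.864), and the cause was not tested. Of 480 values of single lines under alternatives, 140 moved beyond their counting interval, as did 24 of 36 ratios of miR-15a or miR-16 between 2 lines. The settings without miR-15a, with values at the threshold, for ratios between 2 lines, for the chromosome 13 miRNAs and for the count of miRNAs over 2-fold lower, and the miR-424 to miR-503 fold itself, were chosen after seeing the data. Counts near the thresholds (miR-195 and miR-503) or below them (miR-497) limit what can be compared.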

Other observations

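Other human miRNAs encoded on chromosome 13, where MIR15A and MIR16-1 lie, were looked up by name in RefSeq. Of 10 such probes, 4 were detected in all 5 lines, and these belong to the miR-17-92 cluster, also on that chromosome. Probes that join several miRNAs in their name are not in this count. Of these, miR-106a+miR-17 and miR-20a+miR-20b include miRNAs of the same cluster, with 300 and 5882 raw counts in Meg-01 and at least 192 and 3201 in the other lines. Jurkat, the lowest other line for these probes in the main scaling, was 1.23-fold and 1.14-fold above Meg-01. hsa-miR-18a gave 96 raw counts in Meg-01, 225 in K562, 121 in Jurkat, 69 in Raji and 84 in U937. hsa-miR-19a gave 153 in Meg-01, 417 in K562, 221 in Jurkat, 110 in Raji and 231 in U937. Raji was the lowest line for both in raw counts, but Meg-01 was in the main scaling. There the next line, Raji, was 1.53-fold above Meg-01 for miR-19a (113 scaled in Meg-01), and U937 was 1.23-fold above it for miR-18a (71.2 scaled), with an interval that reaches 1. hsa-miR-19b gave 4212 raw counts in Meg-01 and hsa-miR-92a gave 15661, against 2958 and 8533 in Raji, the lowest line in raw counts, and both also have a copy on chromosome X. In the main scaling Meg-01 was the lowest line for miR-19b, with Jurkat 1.11-fold above it, and Meg-01 (11611) and Jurkat (11609) were level at the bottom for miR-92a. hsa-miR-1297 was above the threshold in Jurkat alone, at 36 counts, and the other 5 probes were below it in every line.

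At the threshold of the methods, miR-195 in Jurkat was above background, with 42 counts against 35.02, while in Meg-01 41 counts were below 42.1. The 2 counts differ by 1. The negative controls ranged from 8 to 44 counts in Meg-01 and from 11 to 30 in Jurkat.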
